A study of Mus musculus with 94 samples.

Results

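The brains of 12 wild-type (wt) mice were profiled 24 hr after exposure to methylazoxymethanol (MAM) or to vehicle. They make up 12 of the 94 arrays of the study. The arrays were chosen by title, as the 6 wt MAM and the 6 wt vehicle arrays of the 24 hr time point. All 12 animals were males of the C57BL6 strain, 11 weeks old. They carried a functional Mgmt gene and differed by design in the agent given, MAM or vehicle. The study as a whole crossed wt and Mgmt-/- mice with both agents at 6, 24, 48 and 168 hr. MAM acetate was injected intraperitoneally as a single dose, and total RNA of a brain hemisphere from each animal was hybridized to the Affymetrix Mouse Genome 430 2.0 array, 1 array per animal. The levels below are log2 RMA values, and each difference is the MAM mean minus the vehicle mean on that scale, with its standard error (SE).

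MAM is the active aglycone of cycasin, a glucoside of cycad seed. It breaks down to a methylating species that alkylates DNA bases, including the O6 position of guanine. O6-methylguanine-DNA methyltransferase, the product of Mgmt, removes that methyl group directly. Persistent lesions can activate p53 and its target genes, and acute toxicity of many kinds also raises circulating glucocorticoids, whose receptor acts on transcription in neurons and glia. RNA from a whole hemisphere mixes all of these cells, so fewer cells of a type and less RNA per cell cannot be told apart.

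Animal numbers fell into 2 sets, the 100s and the 700s, with 3 vehicle and 3 MAM animals in each. The experiment was run at 2 study sites, and the labels do not say which set belongs to which, so the sets are named here by their numbers. Neuronal Snap25 and myelin Mbp were among the brightest markers, at mean levels of 13.3 and 13.7 in vehicle brain. The array carried a single Mgmt probe set, which read 5.61 ± 0.08 (SD, n = 6) in wt vehicle brain and 5.66 ± 0.34 (SD, n = 6) in Mgmt-/- vehicle brain at 24 hr. It therefore gave no check of the genotype. In MAM-treated wt brain this Mgmt probe set read 5.80 ± 0.23 (SD, n = 6). MAM animals A133 and A135 (A with the animal number) stood apart from the rest, with mean correlations to the other 11 arrays of 0.9813 and 0.9894 against 0.9918 to 0.9945 elsewhere. The RNA 3'/5' index, the mean log2 excess of 3' over 5' control signal for Gapdh and beta-actin, was 0.327 ± 0.0364 (SD, n = 6) after vehicle and 0.390 ± 0.0494 (SD, n = 6) after MAM (exact two-sided permutation test within number sets, p = 0.02). With the index as a covariate the smallest adjusted p was 0.933 (limma, 1817 probe sets at an unadjusted p below 0.05). The 24 genes of smallest p described below kept their direction. They were chosen from the same arrays for a small p and 1 sign in both number sets, so this is no separate evidence.

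No probe set was called after MAM. The call required an adjusted p below 0.05 (limma, Benjamini-Hochberg over all probe sets) and a fold change above 1.3, with number set as a blocking term. It was met by 0 of 45037 probe sets (0%), and the smallest adjusted p was 0.426. An ordinary linear model also gave 0, with a smallest adjusted p of 0.605. At an unadjusted p below 0.05 there were 3656 probe sets, of which 1944 (4.32%) were higher and 1712 (3.8%) lower after MAM. All 6 MAM arrays lay above all 6 vehicle arrays at 100 probe sets (0.222%), which named 76 genes. They lay below all vehicle arrays at 42 probe sets (0.0933%), which named 34 genes. The genes described next are therefore those with the smallest p in each direction and the same sign in both number sets, 12 higher and 12 lower, and none of them passed the test. At 9 of the 12 higher genes and 4 of the 12 lower genes the groups did not overlap.

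Among the genes with higher values after MAM were some expressed by astrocytes. Gfap (probe set 1426508_at), the intermediate filament protein of astrocytes, had vehicle levels of 8.98 at lowest, 9.09 at the median and 9.47 at highest, and MAM levels of 9.42, 9.70 and 10.29. Only the lowest MAM animal fell within the vehicle range, and the highest was animal A133. The Gfap difference was 0.56 ± 0.13 (SE), with 0.49 in the 100s and 0.64 in the 700s (adjusted p = 0.519, limma), and it was 0.46 without animal A133 and 0.39 with the RNA index as a covariate. Of the other Gfap probe sets, 1 gave 0.42 and 1 gave -0.15. Mt3 (1420575_at), a brain metallothionein that binds zinc and copper, ranged over 10.99, 11.10 and 11.28 after vehicle (lowest, median, highest) and 11.33, 11.42 and 11.51 after MAM. Every MAM animal exceeded every vehicle animal. The Mt3 difference was 0.31 ± 0.06 (SE) and came to 0.31 in each number set (adjusted p = 0.492, limma), and to 0.27 with the index. Aldh1l1, the cytosolic folate enzyme used as a general astrocyte marker, differed by 0.19 ± 0.06 (SE), with 0.19 in the 100s and 0.20 in the 700s. The 15 measured astrocyte markers did not share this: 9 were higher and 6 lower, with a median difference of 0.0194 against 0.0138 over all 18193 genes.

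The 3 metallothionein genes on the list differed unequally. Mt1 had vehicle levels of 12.07, 12.15 and 12.39 (lowest, median, highest) and MAM levels of 12.30, 12.36 and 12.53, so the groups overlapped at their edges. Its difference was 0.22 ± 0.07 (SE), with 0.24 in the 100s and 0.20 in the 700s. Mt2 differed by 0.07 ± 0.07 (SE), with 0.17 in the 100s and -0.04 in the 700s. In Mgmt-/- brain at 24 hr the differences were 0.29 for Mt3, -0.27 for Mt1 and -0.39 for Mt2.

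Transcription of Mt1 is controlled by zinc through metal response elements. The promoters of Mt1 and Mt3 are shown because these nearby genes gave the largest differences of the metallothionein genes on the list. The windows run from 250 bases before to 50 bases after the RefSeq start (GRCm38.p6, plus strand), Mt1 at chr8:94178839-94179138 and Mt3 at chr8:94152357-94152656, and capitals mark matches to TGCACNC or TGCGCNC on either strand.
Mt1: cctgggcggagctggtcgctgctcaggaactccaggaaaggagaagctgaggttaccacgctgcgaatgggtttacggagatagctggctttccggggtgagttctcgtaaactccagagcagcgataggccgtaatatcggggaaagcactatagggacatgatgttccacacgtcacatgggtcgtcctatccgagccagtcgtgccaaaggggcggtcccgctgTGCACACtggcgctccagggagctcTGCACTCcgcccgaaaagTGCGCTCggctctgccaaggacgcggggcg
Mt3: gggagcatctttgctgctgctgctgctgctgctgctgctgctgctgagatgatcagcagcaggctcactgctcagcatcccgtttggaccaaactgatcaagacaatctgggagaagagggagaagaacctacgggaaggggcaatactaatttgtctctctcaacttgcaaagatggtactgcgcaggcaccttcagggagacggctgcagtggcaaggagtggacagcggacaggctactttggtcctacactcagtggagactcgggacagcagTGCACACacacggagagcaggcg
Mt1 held 3 matches, at -23 to -17, 3 to 9 and 21 to 27 from the start, and Mt3 held 1, at 28 to 34. Such a match occurred in 8444 of 32851 mouse promoters of this length (25.7%), so its presence alone singles out neither gene. The Mt2 promoter, not shown, also held a match, and Mt2 differed by 0.07.

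Several enzymes and matrix genes were also higher. Galc (1420547_at), the lysosomal galactosylceramidase that degrades myelin galactolipids, had vehicle levels of 5.17, 5.39 and 5.43 (lowest, median, highest) and MAM levels of 5.43, 5.95 and 6.05. MAM animal A131 sat at the top of the vehicle range and the other five lay well clear of it. The Galc difference was 0.52 ± 0.09 (SE; adjusted p = 0.426, limma), but its 2 other probe sets gave 0.12 and 0.05. Tgm2 (1417500_a_at), the tissue transglutaminase that crosslinks proteins, had vehicle levels of 6.18, 6.32 and 6.53 and MAM levels of 6.59, 6.63 and 7.0. The groups did not overlap, and animal A133 was the highest. The Tgm2 difference was 0.37 ± 0.07 (SE), and its other probe sets ranged from 0.00 to 0.29. Col6a1 (1448590_at), a chain of type VI collagen, had vehicle levels of 6.52, 6.64 and 6.96 and MAM levels of 6.98, 7.21 and 7.51. All MAM animals were above all vehicle animals, the closest pair being nearly level. Its difference was 0.52 ± 0.10 (SE), with 0.40 in the 100s and 0.64 in the 700s.

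Pglyrp1 (1449184_at), a peptidoglycan recognition protein of innate immunity, had vehicle levels of 5.35, 5.47 and 5.80 (lowest, median, highest) and MAM levels of 5.80, 6.04 and 6.35. Only the top vehicle animal reached the MAM range. The Pglyrp1 difference was 0.54 ± 0.10 (SE), with 0.37 in the 100s and 0.70 in the 700s. The remaining higher genes were the alpha-arrestin Arrdc2 (0.41 ± 0.09), the homeobox gene of myelinating cells Nkx6-2 (0.41 ± 0.09), the neuronal kinase gene Pak7 (0.39 ± 0.07), the phosphatase gene Ctdsp1 (0.38 ± 0.09), the testis-type linker histone gene H1f7 (0.34 ± 0.07) and the heat shock factor gene Hsf4 (0.33 ± 0.07), each with its SE. Of these 6, all but Nkx6-2 had MAM and vehicle groups that did not overlap. The Pak7 value is from probe set 1446159_at. The brightest Pak7 probe set ran the other way, at -0.25, and a further one gave -0.05.

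**Figure D1:**
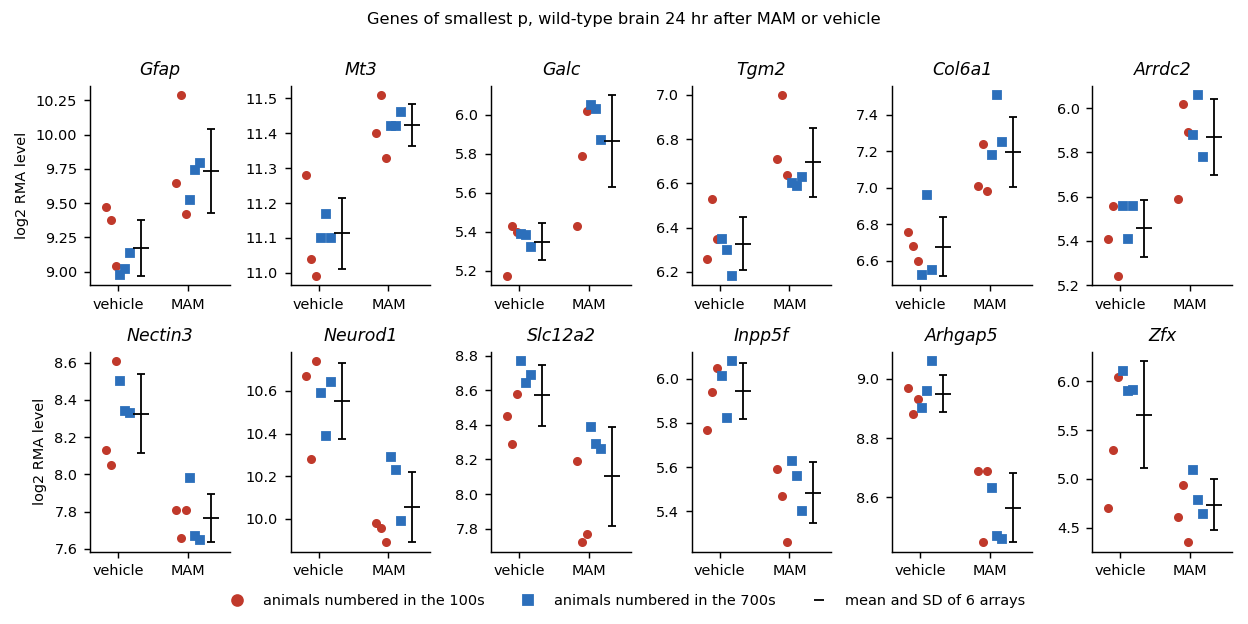
Log2 RMA level in each of the 12 arrays for 12 of the genes of smallest p, with animals numbered in the 100s as circles, animals in the 700s as squares, and bars for the mean and SD of 6 arrays. The 6 Mt3 values after MAM (11.33 to 11.51) all lie above the vehicle values, while Zfx after vehicle spans 4.70 to 6.10 and overlaps the MAM range.

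Among the genes with lower values were adhesion, transport, transcription and autophagy genes. Nectin3 (1423331_a_at), a cell adhesion protein of synapses and junctions, had vehicle levels of 8.05, 8.34 and 8.61 (lowest, median, highest) and MAM levels of 7.65, 7.74 and 7.98. The groups did not overlap. The Nectin3 difference was -0.57 ± 0.10 (SE; adjusted p = 0.426, limma), with -0.50 in the 100s and -0.63 in the 700s. Its other probe sets ranged from -0.41 to -0.05. Neurod1 (1426413_at), a transcription factor of granule neurons, had vehicle levels of 10.28, 10.61 and 10.74 and MAM levels of 9.89, 9.99 and 10.29. A vehicle animal of the 100s and a MAM animal of the 700s overlapped narrowly. The Neurod1 difference was -0.49 ± 0.09 (SE), while its other probe set, of the same mean brightness, gave -0.08. Slc12a2 (1448780_at), the NKCC1 cotransporter that loads chloride into cells, differed by -0.47 ± 0.09 (SE), and its brightest probe set gave -0.05.

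Rb1cc1 (1449292_at), a scaffold of the autophagy initiation complex also called FIP200, had vehicle levels of 6.78, 7.48 and 7.68 and MAM levels of 6.11, 6.80 and 6.92. The vehicle animal A109 was far below its group and within the MAM range. The Rb1cc1 difference was -0.76 ± 0.14 (SE), and the brightest Rb1cc1 probe set gave 0.00. Zfx (1428046_a_at), an X-linked zinc finger transcription factor, had vehicle levels of 4.70, 5.91 and 6.10 and MAM levels of 4.35, 4.71 and 5.09. Only the lowest vehicle animal, A107, lay within the MAM range. The Zfx difference was -0.92 ± 0.19 (SE; adjusted p = 0.492, limma). A second Zfx probe set gave -0.87, and the other Zfx probe sets gave -0.11 and -0.10.

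The other genes of smallest p with lower values were Inpp5f (-0.46 ± 0.08), an inositol phosphatase gene, Arfgef1 (-0.47 ± 0.08) and Arhgap5 (-0.39 ± 0.07), regulators of small GTPases, Esf1 (-0.64 ± 0.12), a nucleolar gene, Rlf (-0.70 ± 0.14), a zinc finger gene, Slc16a14 (-0.61 ± 0.12), of the monocarboxylate transporter family, and Herc1 (-0.31 ± 0.07), a giant ubiquitin ligase gene, each with its SE. Inpp5f, Arfgef1 and Arhgap5 did not overlap between groups. All 12 genes of this direction had a further probe set, and at 7 of the 12 the brightest such probe set differed by less than 0.15 either way. Inpp5f, at -0.02, and Arfgef1, at 0.01, were among them. Of the 12 higher genes, 5 had a further probe set and 2 of those stayed within 0.15.

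Probe sets of a gene also differed for transcripts taken from earlier results of these data. Rrm2b, the p53-inducible small subunit of ribonucleotide reductase, had at 1 probe set (1437221_at) vehicle levels of 4.09, 5.29 and 5.53 (lowest, median, highest) and MAM levels of 3.62, 4.15 and 4.56. Most vehicle animals were above the MAM range, and only vehicle animal A109 lay within it. That probe set differed by -0.92 ± 0.19 (SE; adjusted p = 0.493, limma) and a second by -0.77, while the brightest Rrm2b probe set gave -0.06 and the fourth 0.03. Malat1, an abundant nuclear long RNA, was read by 7 probe sets whose differences ran from -0.87 to 0.09. Here the brightest probe set gave -0.87 and the next brightest -0.41, and only the 1 at 0.09 was positive. Grm5, the mGluR5 glutamate receptor gene, gave -0.63 ± 0.15 (SE) at 1 probe set and -0.18 ± 0.10 (SE) at the brightest. Dnmt3a, a de novo DNA methyltransferase gene, gave -0.52 ± 0.16 (SE) and -0.18 ± 0.10 (SE) in the same way. The size of the difference thus depended on the probe set read, and for Rrm2b, Malat1 and Dnmt3a, which gave 0.09 at a further probe set, its sign did too. Both Grm5 probe sets were negative. The bright Dnmt3a probe set gave -0.10 without animal A133. Where along the transcript each probe set lies was not analysed here.

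Glucocorticoid-responsive genes had a higher median than any other list drawn up for hormone, stress, damage, cell type, region, tissue and signaling genes, apart from the olfactory bulb and pituitary lists added after values were seen. All 32 were measured, with 1 probe set each. None was called, 27 were higher and 5 lower after MAM, and the median difference was 0.14 against 0.0138 over all genes, of which 55.5% were higher. At an unadjusted p below 0.05 there were 8 higher and 1 lower, beside 4.52% and 3.26% of all genes. The median was 0.155 in the 100s and 0.132 in the 700s, and 21 of the 32 were higher in both. The mean level over the list ran from 8.10 to 8.22 in vehicle animals and from 8.20 to 8.41 in MAM animals, so the groups met at 1 edge. The list was drawn up with earlier results of these data known, so its direction is not independent evidence.

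Within that list the sulfotransferase gene Sult1a1 (1427345_a_at) differed by the most. Its vehicle levels were 6.63, 7.07 and 7.83 (lowest, median, highest) and its MAM levels 7.17, 7.64 and 7.97, an overlap of several animals. The Sult1a1 difference was 0.48 ± 0.16 (SE), with 0.28 in the 100s and 0.69 in the 700s. Arrdc2 had vehicle levels of 5.24, 5.48 and 5.56 and MAM levels of 5.59, 5.88 and 6.06. It was the 1 member whose groups did not overlap. Pdk4, the kinase that restrains pyruvate oxidation, differed by 0.29 ± 0.08 (SE), the lipid droplet gene Plin4 by 0.27 ± 0.07 (SE), the cell cycle inhibitor gene Cdkn1a by 0.23 ± 0.09 (SE; -0.23 at its other probe set) and the small GTPase gene Rhob by 0.17 ± 0.07 (SE). Xdh, which encodes xanthine dehydrogenase, differed by 0.32 ± 0.13 (SE), with 0.65 in the 100s and 0.00 in the 700s.

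Of 2 classic receptor targets, the ion transport kinase gene Sgk1 differed by 0.21 ± 0.16 (SE) and Fkbp5, the co-chaperone that limits receptor signaling, by 0.17 ± 0.11 (SE). Sgk1 gave 0.09 without animal A131 and 0.11 without A735. Fkbp5 after vehicle was tight, at 7.80, 7.88 and 7.95, and after MAM ran over 7.75, 8.0 and 8.53. The top value was animal A133, without which the difference was 0.07. Klf9, a receptor-induced zinc finger gene, ran the other way, at -0.22 ± 0.09 (SE).

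The Sult1a1 promoter is shown as that of the member with the largest difference, at chr7:126676369-126676668 (GRCm38.p6, RefSeq, minus strand, 250 bases before to 50 after the start), with capitals for the receptor hexamer AGAACA on either strand.
Sult1a1: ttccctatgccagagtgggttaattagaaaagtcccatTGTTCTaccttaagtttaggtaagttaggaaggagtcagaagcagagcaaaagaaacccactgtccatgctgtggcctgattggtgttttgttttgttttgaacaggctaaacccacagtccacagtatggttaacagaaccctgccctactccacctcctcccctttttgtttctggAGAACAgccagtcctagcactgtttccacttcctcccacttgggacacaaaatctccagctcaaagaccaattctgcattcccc
It held 2 matches, at -212 to -207 on the other strand and at -34 to -29. The hexamer was found in 19% of all promoters and in 2 of the 27 list members with a promoter in the table (7.41%), and the full palindrome, that hexamer followed after 3 bases by its complement in reverse, in 0 of those 27 and in 3 of 32851.

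**Figure D2:**
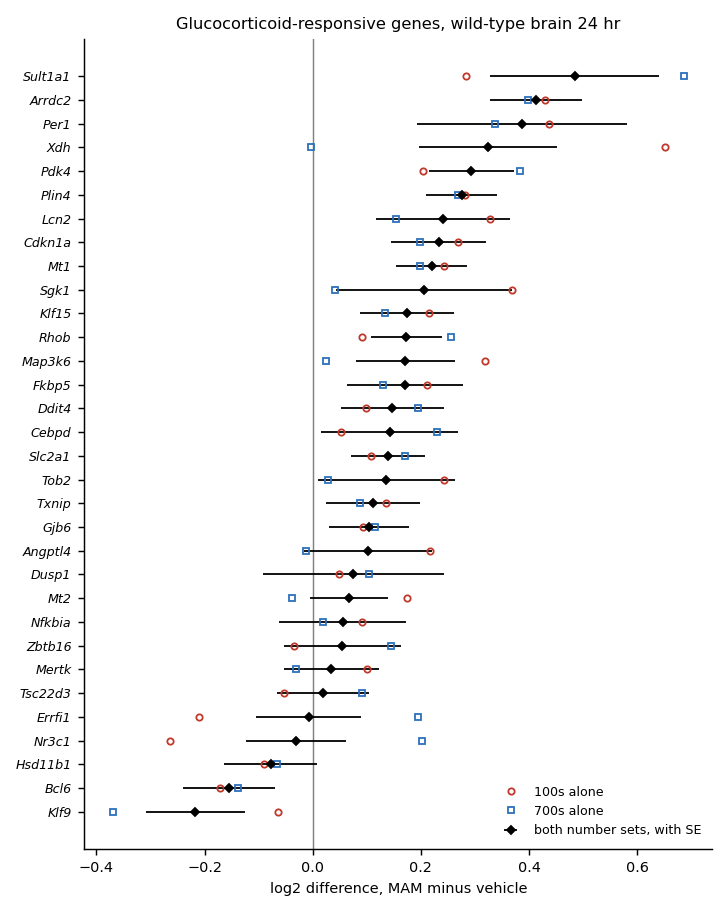
Log2 difference (MAM minus vehicle) for the 32 glucocorticoid-responsive genes, with diamonds and SE bars for both number sets, circles for the 100s and squares for the 700s. Diamonds lie right of 0 for 27 of the 32 genes, from Sult1a1 at 0.48 to Klf9 at -0.22.

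Genes of the DNA damage response showed no such shift. Of 28 measured p53 target genes, 15 were higher and 13 lower, with a median of 0.00556, and none was called. The 2 of smallest p were Sesn2, a stress-induced regulator of mTORC1, at 0.28 ± 0.10 (SE), with 0.51 in the 100s and 0.05 in the 700s, and Cdkn1a. Cdkn1a, the p21 gene and a glucocorticoid list member as well, had vehicle levels of 7.06, 7.14 and 7.6 (lowest, median, highest) and MAM levels of 7.17, 7.42 and 7.83. Vehicle animal A107 was the only vehicle animal above the MAM median. At 6 hr the Cdkn1a difference in wt brain was 0.59, at 48 hr -0.14 and at 168 hr -0.15, and in Mgmt-/- brain at 24 hr it was 0.32. Both genes had a second probe set that ran the other way at 24 hr in wt brain, at -0.20 for Sesn2 (0.07 in the 100s and -0.47 in the 700s) and -0.23 for Cdkn1a (0.11 and -0.58).

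Repair genes were similarly flat. The 14 measured alkylation and mismatch repair genes split 7 higher and 7 lower (median 0.0159). Mgmt, whose product reverses the O6 lesion, had vehicle levels of 5.50, 5.59 and 5.73 and MAM levels of 5.61, 5.69 and 6.16, so that the groups overlapped. The highest MAM values were those of A133 and A135. Its difference was 0.18 ± 0.09 (SE), with 0.34 in the 100s and 0.02 in the 700s, and it was 0.11 without A133 and 0.03 without both. Fto, an RNA demethylase gene of the AlkB family, gave 0.16 ± 0.08 (SE). Among 34 genes of base excision, nucleotide excision and strand break repair, 23 were higher and 11 lower (median 0.0296), and the scaffold gene Xrcc1 (0.14 ± 0.07 SE) and the end-joining gene Xrcc4 (0.16 ± 0.08 SE) had the smallest p. Of 22 deoxynucleotide synthesis and salvage genes 11 were higher, and the kinase gene Dck gave -0.33 ± 0.14 (SE).

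Heat shock and cold-inducible genes had a median of -0.0661 (12 measured, 3 higher), made of -0.154 in the 100s and 0.089 in the 700s. Endoplasmic reticulum chaperones behaved alike, with a median of -0.155 in the 100s and 0.0807 in the 700s, and Hsp90b1, the GRP94 gene, gave -0.40 in the 100s and -0.01 in the 700s. Of 21 circadian clock genes 15 were higher (median 0.0279, with 0.0752 in the 100s and 0.105 in the 700s). Of these, 3 were at an unadjusted p below 0.05, beside 4.52% of all genes. The 3 included the repressor gene Cry2 at 0.17 ± 0.07 (SE), while the activator gene Rora, at -0.17 ± 0.06 (SE), was the 1 lower gene at that p. Immediate early genes split 12 and 12, and Bdnf, the activity-dependent neurotrophin gene, gave -0.26 ± 0.09 (SE) with -0.25 in the 100s and -0.27 in the 700s. The other Bdnf probe set gave -0.08, with -0.29 in the 100s and 0.13 in the 700s.

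Neuronal and myelin markers were near the median of all genes. Among 20 neuron markers 12 were higher (median 0.0335). Syn1, a synaptic vesicle phosphoprotein gene, had vehicle levels of 10.91, 11.14 and 11.43 (lowest, median, highest) and MAM levels of 11.25, 11.38 and 11.88. Animal A133 was the highest and several animals overlapped, and the difference was 0.31 ± 0.10 (SE). The kinase gene Camk2a gave 0.20 ± 0.07 (SE). Of 18 oligodendrocyte and myelin markers 8 were higher (median -0.0133, with -0.0528 in the 100s and 0.0629 in the 700s). The glial fate factor gene Sox10 gave 0.25 ± 0.10 (SE), whereas Enpp6, a choline phosphodiesterase of newly formed oligodendrocytes, gave -0.34 ± 0.09 (SE). Enpp6 levels were 5.93, 6.01 and 6.19 after vehicle and 5.43, 5.71 and 5.90 after MAM, with no overlap. Microglia markers split 9 higher and 8 lower (median 0.00368), and endothelial and pericyte markers 7 and 12 (median -0.0379), with -0.146 in the 100s and 0.125 in the 700s. In that list the shear-responsive factor gene Klf2 gave 0.41 ± 0.14 (SE) and the pericyte gene Rgs5 -0.25 ± 0.08 (SE).

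The 14 cerebellum and hindbrain markers had a median of -0.135, with 10 lower, made of -0.277 in the 100s and -0.018 in the 700s. Car8, a Purkinje cell gene, had vehicle levels of 11.14, 11.30 and 11.59 and MAM levels of 10.66, 11.02 and 11.22. Some animals of each group overlapped, and the Car8 difference was -0.36 ± 0.11 (SE). Neurod1 belongs to this list too. Forebrain markers gave Neurod6, of cortical pyramidal neurons, at -0.51 ± 0.17 (SE) and Prox1, of dentate granule cells, at -0.40 ± 0.11 (SE), while their list of 13 had a median of -0.000463. An olfactory bulb list, added after values were seen, had 8 of 10 genes higher with a median of 0.421, made of 0.588 in the 100s and 0.0413 in the 700s. Its mean level ran from 6.88 to 7.94 after vehicle and from 6.94 to 8.21 after MAM, and the part of tissue content in the differences above was not tested.

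Liver markers had lower values after MAM. Of 13 measured liver markers 12 were lower, beside 8088 of all 18193 genes. At an unadjusted p below 0.05 there were 5 lower, beside 3.26% of all genes. The median was -0.233, with -0.258 in the 100s and -0.203 in the 700s. The mean level over the list ran from 5.41 to 6.71 in vehicle animals and from 5.26 to 5.79 in MAM animals, so the spread among vehicle brains exceeded that among MAM brains. Alb (1425260_at), the serum albumin gene, had vehicle levels of 5.78, 7.72 and 8.72 (lowest, median, highest) and MAM levels of 5.54, 5.74 and 7.11. The Alb difference was -1.47 ± 0.42 (SE) and that of Serpina1c, an alpha-1-antitrypsin gene, -1.36 ± 0.37 (SE), and neither was called. The liver list median was -0.226 in wt at 6 hr, 0.0333 at 48 hr, -0.456 at 168 hr and 0.471 in Mgmt-/- brain at 24 hr. Whether these transcripts came from the brain itself was not tested.

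Pituitary transcripts were highest in a single animal and varied among others. The mean level of the pituitary list, also added after values were seen, was 9.56 in MAM animal A735 and ran from 4.64 to 5.77 in the other arrays. Prl, the prolactin gene, was at 11.70 in that animal against a MAM median of 4.56, and the pro-opiomelanocortin gene Pomc at 11.99 against 7.14. The differences of 1.37 ± 0.96 (SE) for Prl, 1.59 ± 0.92 (SE) for the growth hormone gene Gh, 1.06 ± 0.77 (SE) for the glycoprotein hormone alpha gene Cga and 1.03 ± 0.66 (SE) for Pomc were each less than 2 times their SE. With the RNA index as a covariate they became -0.31, -0.17, -0.09 and -0.14, and without animal A735 they were 0.23, 0.68, 0.11 and 0.27. Animal A735 also had the highest RNA index of the 12 arrays, at 0.458. The covariate therefore cannot be told apart from that animal. In the 100s, which do not include A735, they were 0.68, 1.34, 0.22 and 0.47. After A735 the highest list means were those of MAM animal A133 and vehicle animal A709, each at 5.77. Of the erythroid list 5 genes were measured, 3 higher, and the heme synthesis gene Alas2 gave 0.22 ± 0.15 (SE), with -0.11 in the 100s and 0.54 in the 700s.

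**Figure D3:**
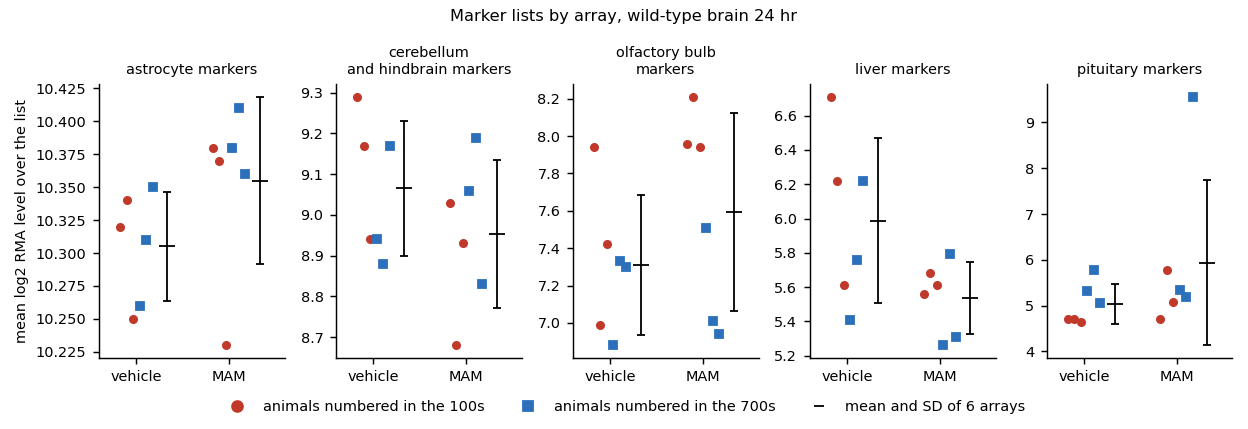
Mean log2 RMA level over 5 marker lists in each of the 12 arrays, with circles for the 100s, squares for the 700s and bars for the mean and SD of 6 arrays. MAM animal A735 stands at 9.56 for pituitary markers, and vehicle animals spread from 5.41 to 6.71 for liver markers.

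Synapse, signaling and chromatin genes gave small differences. Of 6 measured metabotropic glutamate receptor genes 5 were lower (median -0.0661). Grm3, a glial and presynaptic group II receptor gene, had vehicle levels of 9.69, 9.80 and 9.86 and MAM levels of 9.38, 9.56 and 9.67. The groups did not overlap, and the Grm3 difference was -0.25 ± 0.06 (SE), with -0.27 in the 100s and -0.22 in the 700s. Ionotropic subunits split 6 higher and 8 lower, with Grin2d at 0.29 ± 0.11 (SE; 0.19 without animal A133) and Grik3 at -0.41 ± 0.16 (SE). Genes of GABA signaling split 7 and 7.

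Insulin and PI3K genes split 9 and 9, Wnt genes 10 and 11, and MAPK genes 9 and 8. Among them Pik3r1, the p85 regulatory subunit gene, gave -0.31 ± 0.13 (SE) and the Wnt effector gene Tcf7l2 -0.46 ± 0.15 (SE), against 0.25 ± 0.10 (SE) for the Wnt target gene Axin2, which gave 0.16 without animal A133. Chromatin remodeling and cohesin genes had 14 of 22 lower (median -0.0286, with -0.0627 in the 100s and 0.0795 in the 700s). Oxidative phosphorylation subunits had 17 of 24 lower (median -0.038), with the complex I genes Ndufa1 at -0.14 ± 0.05 (SE) and Ndufb5 at -0.20 ± 0.08 (SE). The lowest Ndufb5 value was that of animal A133, and the difference was -0.13 without it.

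Genes of RNA handling, lipid synthesis and immunity were likewise mixed. Nuclear long RNAs had 7 of 10 higher at their brightest probe sets (median 0.073), and the small nucleolar RNA host gene Gas5 gave 0.16 ± 0.07 (SE). Splicing regulators split 11 higher and 10 lower, with a median of -0.119 in the 100s and 0.142 in the 700s. In that list Clk1, a kinase gene of splicing factors, gave 0.06 and 0.44, and Rbm25, a splice site regulator gene, 0.02 and -0.79. Cytosolic ribosomal protein genes had 9 of 13 higher (median 0.0286), with Rpl4 at 0.11 ± 0.06 (SE). Sterol and fatty acid synthesis genes split 10 and 14 (median -0.0321, with -0.114 in the 100s and 0.0646 in the 700s). The mevalonate kinase gene Mvk gave 0.45 in the 100s and 0.00 in the 700s, and the acetyl-CoA carboxylase gene Acaca 0.14 and 0.15. Interferon response and antigen presentation genes split 13 and 11 (median 0.00572), with the interferon-induced gene Ifit2 at 0.15 ± 0.07 (SE), and NF-kB subunits and inhibitors 7 and 4 (median 0.0567).

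Further cell and region lists gave the same picture. Striatal markers had 8 of 12 higher (median 0.0529), yet Rasd2, the Rhes GTPase gene, gave 0.34 ± 0.12 (SE) and the phosphodiesterase gene Pde10a -0.33 ± 0.13 (SE). Hypothalamic and neuropeptide markers had 11 of 15 higher (median 0.0381). Choroid plexus and ependyma markers split 5 and 6 (median -0.0285), with the water channel gene Aqp1 at 0.29 ± 0.12 (SE; 0.19 without animal A131). Proliferation and neuroblast markers split 11 and 9 (median 0.0171), and the replicative helicase gene Mcm5 gave -0.24 ± 0.11 (SE; -0.15 without vehicle animal A107).

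**Figure D4:**
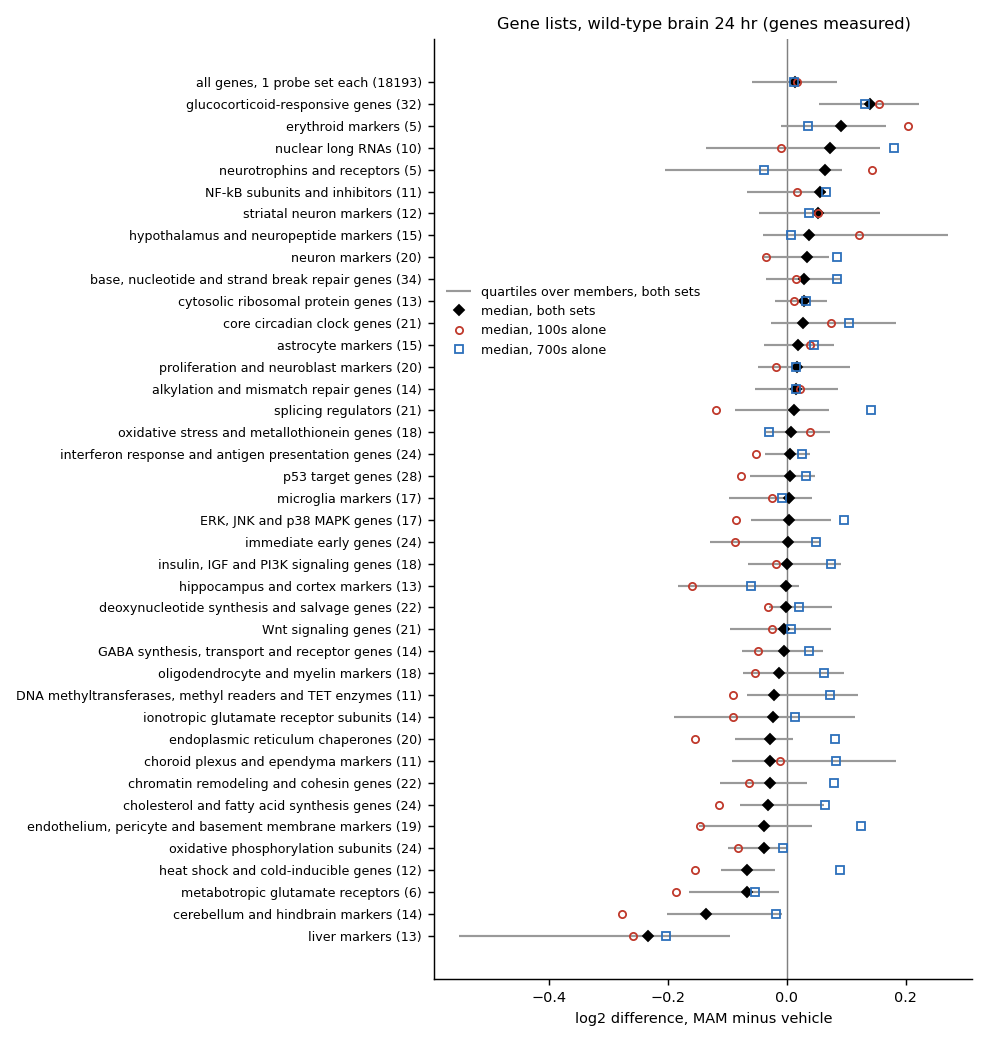
Median log2 difference (MAM minus vehicle) of each gene list except the olfactory bulb and pituitary lists, with the number of genes measured, lines for the quartiles over members, diamonds for both number sets together, circles for the 100s and squares for the 700s. The glucocorticoid list (0.14) and the liver list (-0.233) lie at the ends of those plotted, and for many lists the circles and squares fall on opposite sides of 0.

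The number sets differed from each other in how much was called. In the 100s alone no probe set was called (limma, smallest adjusted p 0.58, with 3745 at an unadjusted p below 0.05). In the 700s alone 999 were called, 413 higher (0.917%) and 586 lower (1.3%) after MAM, naming 720 genes. The 413 that rose in the 700s had a median difference of 0.475 there and of -0.0706 in the 100s, where 40.4% had the same sign. The 586 that fell had medians of -0.568 and -0.051, with 58.5% of the same sign. Over all probe sets 45% had the same sign in both sets. The difference between the sets was itself tested, and 0 of 45037 probe sets passed (0%; smallest adjusted p 0.171, limma, with 6572 at an unadjusted p below 0.05). The median residual SD was 0.162 in the 100s and 0.098 in the 700s.

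Genes that fell in the 700s with the same sign in the 100s included Atrx, a chromatin remodeler gene of the X chromosome, at -1.17 in the 700s (adjusted p = 0.00166, limma) and -0.52 in the 100s. Mmp16, a membrane metalloproteinase gene, fell by 1.22 in the 700s and stood at -0.54 in the 100s. Pank3, a coenzyme A synthesis gene, fell by 1.18 and stood at -0.30. Others did not share the direction in the 100s. Crebbp, the CBP acetyltransferase gene, fell by 1.22 in the 700s and stood at 0.00 in the 100s, and Ankrd11, a chromatin cofactor gene, fell by 1.27 and stood at 0.44. The fall given for each gene is that of 1 probe set, which was not the brightest of its gene. In the 700s a further probe set gave -0.73 for Atrx, -0.96 for Crebbp and -0.61 for Ankrd11. In the 700s the brightest probe sets gave 0.07 for Atrx, 0.03 for Mmp16, 0.19 for Pank3, 0.22 for Crebbp and 0.19 for Ankrd11.

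Of the genes that rose in the 700s, Nrxn2, a presynaptic adhesion gene, gave 1.12 there and 0.93 in the 100s, where animal A133 was the highest at 8.58. Over both sets the Nrxn2 difference was 1.03 ± 0.34 (SE), and 0.67 without that animal. The sodium pump subunit gene Atp1b2 gave 0.95 and 0.50, but in the 100s animal A133, at 11.04, was the 1 MAM animal above all vehicle animals, and A131 and A135 averaged 9.32 against a vehicle mean of 9.39. Cp, the ceruloplasmin gene, gave 0.97 and 0.20. The histone demethylase gene Kdm6b gave 1.22 and 0.02. In the 700s the brightest probe set gave 0.03 for Nrxn2, 0.60 for Atp1b2 and 0.22 for Cp. The other Kdm6b probe sets gave 0.05 and 0.07 there. Here again the probe sets of a gene differed. Among 425 genes with a probe set that fell and a further probe set, the called probe sets had a median of -0.58 and the brightest further ones 0.0579. Among 233 genes with a probe set that rose, the medians were 0.466 and 0.0787, and 26 genes were called in both directions. The RNA 3'/5' index was higher after MAM by 0.0914 in the 700s and by 0.0347 in the 100s, and its part in the calls of the 700s alone was not tested. Over both sets, Atrx went from -0.85 to -0.48 and Kdm6b from 0.62 to 0.23 with the index as a covariate.

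**Figure D5:**
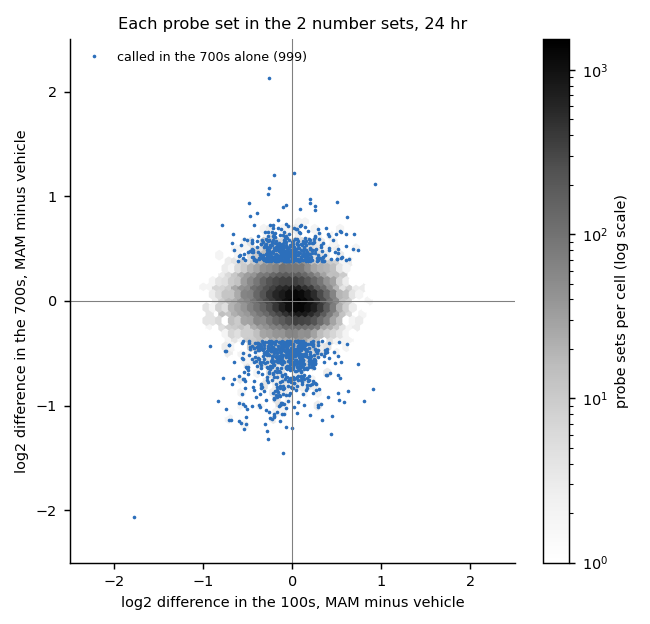
Log2 difference (MAM minus vehicle) of each probe set in the 100s (horizontal axis) and the 700s (vertical axis), with gray cells for the number of probe sets on a log scale and points for the 999 called in the 700s alone. The points spread about 0 on the horizontal axis, around medians of -0.0706 for those that rose and -0.051 for those that fell, and 1 probe set lies outside the axes.

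Set against Mgmt-/- brain at the same time, the wt difference departed at 2 of 45037 probe sets (0.00444%; interaction in limma, smallest adjusted p 0.0109). The count was 0 under the study's laboratory filter (smallest adjusted p 0.0744) and from 1 to 7 with single arrays left out. Vma21, an assembly factor of the vacuolar proton pump, was at 8.68 ± 0.14 after vehicle and 8.52 ± 0.33 after MAM in wt brain (SD, n = 6), and at 8.21 ± 0.29 and 7.09 ± 0.23 in Mgmt-/- brain (SD, n = 6). These levels, at probe set 1427937_at, were thus near each other in wt brain and apart in Mgmt-/- brain. The brightest Vma21 probe set gave 0.00 in wt brain, and no Vma21 probe set other than 1427937_at was called. Pitpnc1, a phosphatidylinositol transfer protein gene, was at 6.16 ± 0.29 and 6.36 ± 0.29 in wt brain and at 6.24 ± 0.46 and 5.05 ± 0.28 in Mgmt-/- brain (SD, n = 6). The differences were 0.20 for Pitpnc1 and -0.16 for Vma21 in wt brain against -1.19 and -1.11 in Mgmt-/- brain. Pitpnc1 was called at 1431074_a_at alone, and its brightest probe set gave -0.12 in wt brain. The glucocorticoid list median was 0.14 in wt and -0.0724 in Mgmt-/- brain, given side by side without a test of the difference.

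Across times, the 24 hr difference departed from that at 6 hr at 0 of 45037 probe sets (0%; smallest adjusted p 0.999, limma, 1627 at an unadjusted p below 0.05) and from that at 168 hr at 0 (0%; smallest adjusted p 0.858, limma, 1878). It departed from that at 48 hr at 91 probe sets (0.202%), naming 73 genes. With values rounded, 55 of these were positive at 24 hr and negative at 48 hr, and 35 were the reverse. Adam4 stood at 0.00 at 24 hr and -0.53 at 48 hr. Opposite signs are favoured among probe sets chosen for a large contrast between the times, so these counts are no separate evidence of a reversal. Without animals A133 and A135 the count was 0. Slc16a14 stood at 5.31 ± 0.39 after vehicle and 4.70 ± 0.17 after MAM at 24 hr (SD, n = 6), and at 4.72 ± 0.31 (SD, n = 5) and 5.33 ± 0.50 (SD, n = 6) at 48 hr. Both its vehicle and its MAM levels thus traded places between the times. At Rrm2b the probe set called was 1437222_x_at, which differed by -0.77 at 24 hr and 0.89 at 48 hr. Its neighbour 1437221_at, not itself called, stood at 5.07 ± 0.53 and 4.15 ± 0.33 at 24 hr and at 4.51 ± 0.47 and 5.27 ± 0.53 at 48 hr. The brightest and the fourth Rrm2b probe sets gave -0.06 and 0.03 at 24 hr. In Mgmt-/- brain at 24 hr the Rrm2b probe set 1437221_at read 3.56 ± 0.26 after vehicle and 3.43 ± 0.29 after MAM (SD, n = 6), below every wt group named. The glucocorticoid list had medians of 0.13 at 6 hr, 0.14 at 24 hr, 0.0506 at 48 hr and 0.0337 at 168 hr in wt brain, against separate vehicle animals at each time.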

How the data were processed

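The deposited values are log2 RMA levels, which the authors computed from raw cell intensity files with default background correction, quantile normalization and median polish in the affy package. Its version was not stated in the sources at hand. From these, limma 3.58.1 in R 4.3.3 fitted treatment and number set to the 12 arrays over 45037 probe sets, after 64 AFFX controls were set aside. No filter on dim probe sets was used. Symbols came from the platform annotation: 34945 probe sets name 1 gene, 932 several and 9160 none. A list uses, for each gene, its probe set of highest mean. Named genes were the 12 of smallest p in each direction with the same sign in both number sets, the 2 of smallest p in each list, called genes of the other comparisons, and 9 fixed names; olfactory bulb and pituitary genes were picked after values were seen. Members and lists were chosen with earlier results of these data known. Interactions with genotype, time and number set, other normalizations, models and left-out arrays were also fitted. The fits were tested on simulated data. With 6 arrays per group, their number limits the precision, and p-values measure spread between animals. Unmapped columns numbered 0.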

Additional observations from a re-analysis of the deposited data

Results flagged for a closer look

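In 366 groups of 6 arrays, 35 held an animal whose distance from its nearest neighbour, divided by the range of its group, was above Dixon's critical value for 6 samples. Chance alone gives such a ratio in about 1 of 20 groups, and genes of 1 animal are not independent of each other. Animal A133 accounted for 12 of them. Among MAM animals it was highest for Nrxn2 (ratio 0.737), Tgm2 (0.709), Grin2d (0.706) and Syn1 (0.653), and lowest for Gas5 (0.739), Mcm5 (0.721), Ndufb5 (0.672), Pdia4 (0.663) and the bright Dnmt3a probe set (0.63). By mean level over lists it was lowest for alkylation and mismatch repair genes (0.821) and oxidative phosphorylation subunits (0.76), and highest for neuron markers (0.65). MAM animal A135 was lowest for Pdk4 (0.628) and for astrocyte markers (0.732).

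MAM animal A735 was highest for Cga (0.906), Pomc (0.851) and Prl (0.742), and for the lists of pituitary (0.781), hypothalamus (0.631) and DNA methylation (0.636) genes. Vehicle animal A709 was highest for Pomc in its group (0.774). Vehicle animal A109 was lowest for Ywhaz (0.818), Ddx6 (0.769), Laptm5 (0.768), Smarcc1 (0.679), Rb1cc1 (0.647) and Pik3r1 (0.632), and highest for Map2k4 (0.717) and Taf15 (0.638). Vehicle animal A107 was highest for Cdkn1a (0.673) and Pglyrp1 (0.656), and vehicle animal A111 was highest for Clk1 (0.661) and lowest for the myelin list (0.782). Vehicle animal A707 was lowest for Hsf4 (0.88), and A711 was highest for the deoxynucleotide list (0.693). The groups and treatments of these animals are as labelled, and the source of their values was not tested.

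The MAM difference at 24 hr departed between genotypes at 2 probe sets and between 24 and 48 hr in wt brain at 91, by interaction tests in limma. The first count was 0 under the study's laboratory filter, and the second was 0 without animals A133 and A135.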

How the results depend on the processing

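The count of 0 probe sets and 0 genes called after MAM held under every alternative except the 700s alone, which gave 413 higher, 586 lower and 720 genes. The smallest adjusted p was between 0.0731 and 0.782 when each array was left out in turn, 0.0603 with array weights (animals A133 and A135 weighted 0.148 and 0.337), and 0.0512 without those animals, an alternative chosen after seeing the data. With the RNA index as a covariate 1817 probe sets had an unadjusted p below 0.05, against 3656. No paired analysis was possible because animal numbers are not shared between groups. The genotype count of 2 became 4 with an ordinary linear model and 0 with the study's laboratory filter, and ranged from 1 to 7 with single arrays left out. The 24 against 48 hr count of 91 ranged from 0 to 1070 with single arrays left out: it was 0 without vehicle animal A111 or A707 or MAM animal A133 or A135, 1 without vehicle animal A107, and 1070 without MAM animal A131. It was 0 without both A133 and A135. The RNA index difference of 0.063 was 0.0794 from Gapdh alone (exact permutation p = 0.06) and 0.0467 from beta-actin alone (exact permutation p = 0.355). Of 3657 gene values, 3588 kept direction and side of the threshold, 49 passed it and 20 turned: with the RNA index as a covariate Cga (-0.09), Gh (-0.17), Pomc (-0.14), Prl (-0.31), Ifit1 (0.00) and Taf15 (-0.02); in the 100s alone Alas2 (-0.11), Ankrd11 (0.44), Klf6 (-0.07), Pitpnc1 (-0.21), Rbm25 (0.02) and Taf15 (-0.21); in the 700s alone Cdhr1 (-0.13), the bright Dnmt3a probe set (0.01), Egr3 (0.05), Mt2 (-0.04), Nt5e (-0.05), S100a5 (-0.27), Vma21 (0.10) and Xdh (0.00). Of 1052 list medians, 61 moved, and the glucocorticoid median lay between 0.0757 and 0.163 over 27 settings. Cyclic loess and median centring took the median of all probe sets from 0.017 to 0.001 and -0.005. The causes were not tested.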

Other observations

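Single members of the region, neuroblast and neuropeptide lists gave these differences in the 100s and in the 700s. Dlx1, a homeobox gene of interneuron precursors, gave 0.89 in the 100s and 0.12 in the 700s, and Th, the tyrosine hydroxylase gene of dopamine neurons, 0.65 and 0.06. Doc2g, an olfactory bulb gene, gave 0.90 and 0.07. Eomes, of mitral cells, gave 0.52 and 0.49 at its brighter probe set but 0.51 and -0.14 at the other. The thyrotropin-releasing hormone gene Trh gave 0.62 and 0.08, and the neuropeptide gene Gal 0.44 and 0.16. None of them was called, no difference between the sets passed the test, and the tissue content of the hemispheres was not measured.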
